A study of Mus musculus with 25 samples.

Results

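Hepatokines are secreted proteins through which the liver acts on other organs. The transcripts of 8 of them were described in 25 mouse liver RNA libraries: Enho, Angptl4, Angptl8, Fetub, Ahsg, Lect2, Gdf15 and Inhbe. The 8 symbols were a chosen list and were matched to the Ensembl identifiers of the count tables. All 8 were among the 41388 identifiers, and all 8 were among the 14065 genes that reached more than 1 CPM (read counts scaled to library size) in at least 2 libraries. The list was drawn up with earlier results of these libraries known. Enho entered it through its lower level in the libraries labelled LKO NAMPT than in the WT NAMPT libraries on Western diet, so that difference is given below as a description, with no test.

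Each library came from the liver of 1 male C57B/6J mouse at 20 weeks of age, after a dietary study of 12 weeks. Wild type (WT) mice carried floxed Sirt1 alleles without Cre, and their liver-specific knockout (LKO) littermates carried in addition an Albumin-Cre transgene, which acts in hepatocytes. All mice received an adeno-associated virus of serotype 8 (AAV8) holding either an empty vector (EV) or NAMPT under the hepatocyte promoter of thyroxine binding globulin. NAMPT is the rate-limiting enzyme of NAD salvage and SIRT1 is an NAD-dependent deacetylase, and the study asked which effects of hepatocyte NAMPT require SIRT1. The groups were chow WT EV (n = 3), and on Western diet (WD) WD WT EV (n = 6), WD WT NAMPT (n = 6), WD LKO EV (n = 5) and WD LKO NAMPT (n = 5). All 5 groups therefore carried floxed Sirt1 and an AAV8 vector, and chow was given to WT EV mice only. The labels name SIRT1 as the vector insert in their general treatment text and NAMPT in the titles of the NAMPT groups, and the titles were followed.

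The members differ in what they act on. Enho encodes adropin, a small peptide linked to fuel choice and insulin sensitivity, and its liver transcript is known to respond to diet and feeding. Angptl4 and Angptl8 restrain lipoprotein lipase, the enzyme that releases fatty acids from circulating triglyceride, with Angptl4 known as a fasting and PPARα target and Angptl8 as a feeding-induced factor. Fetub and Ahsg encode fetuin-B and fetuin-A, cystatin-fold plasma proteins, the latter known as a mineral carrier and an inhibitor of insulin receptor signalling. Lect2 encodes leukocyte cell-derived chemotaxin 2, a hepatokine linked to insulin resistance in muscle. Gdf15 and Inhbe encode ligands of the TGF-β superfamily: GDF15 acts on the hindbrain receptor GFRAL to lower food intake, and Inhbe encodes the subunit of activin E, which acts on adipose tissue.

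Enho lies on chromosome 4 from 41638144 to 41640324 on the minus strand of GRCm38 (ENSMUSG00000028445). Its transcript of 1269 bases has 2 exons, and the whole coding sequence lies in 1 of them. The coding sequence is shown because Enho had the widest range of all 8 members in fold terms. It spans 231 bases at chr4:41638612-41638842 (GENCODE M21, GRCm38, minus strand), with 76 codons before the stop, and the capitals mark the start and the stop codon.
Enho coding sequence: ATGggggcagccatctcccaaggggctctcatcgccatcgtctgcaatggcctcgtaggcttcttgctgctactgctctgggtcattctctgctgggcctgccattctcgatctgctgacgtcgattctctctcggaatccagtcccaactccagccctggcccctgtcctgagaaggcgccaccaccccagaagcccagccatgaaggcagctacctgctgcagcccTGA
Of the exonic bases of Enho, 15 overlap those of Dnaic1 on the other strand. The sources used here do not say whether reads were counted by strand, so reads from those bases could not be assigned.

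The 250 bases before the start site were read from a table of RefSeq promoters (GRCm38.p6) in which 6 of the 8 members were matched, and those of Enho and Angptl4 were not used here. Inhbe, which rose most on Western diet, and Angptl8 are printed because both held the composite element of ATF and C/EBP factors, TGATGNAA, searched on both strands. The capitals mark the match.
Inhbe, chr10:127351849-127352098, minus strand: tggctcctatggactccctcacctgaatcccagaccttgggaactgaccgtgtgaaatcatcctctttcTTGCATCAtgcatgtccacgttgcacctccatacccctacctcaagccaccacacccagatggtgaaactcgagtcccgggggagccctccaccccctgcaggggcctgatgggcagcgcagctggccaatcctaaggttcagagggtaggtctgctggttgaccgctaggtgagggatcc
Angptl8, chr9:21835260-21835509, plus strand: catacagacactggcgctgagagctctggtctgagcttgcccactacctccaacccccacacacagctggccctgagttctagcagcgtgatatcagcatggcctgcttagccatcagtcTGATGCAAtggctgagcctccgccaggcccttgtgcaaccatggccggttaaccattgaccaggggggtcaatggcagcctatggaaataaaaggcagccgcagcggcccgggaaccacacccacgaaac
In Inhbe the match lay 181 to 174 bases before the start and read as TTGCATCA on the gene's strand, that is on the opposite strand as searched. In Angptl8 it lay 130 to 123 bases before the start as TGATGCAA. The element was present in 3.45% of the 32851 RefSeq promoters of this length. The E-box CACGTG, found in 6.02% of promoters, occurred in 1 of the 2 Gdf15 start sites, 83 to 78 bases upstream. The ROR receptor motif TAGGTCA, found in 2.23% of promoters, had no match in the 8 promoter entries of the 6 members. A match is a description of letters and not of binding, and the data hold no measure of binding.

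Libraries held 20166175 to 32937326 counts. Hepatocyte markers were abundant in every library, with the 6 listed markers (Alb, Ttr, Apoa1, Apob, Tat, Cps1) summing to between 52080 and 85480 CPM. Sirt1 counts, taken over the whole gene, ranged from 7.16 to 10.1 CPM in WD LKO EV and from 8.09 to 11.1 CPM in WD LKO NAMPT, against 7.99 to 9.53 CPM in WD WT EV. The ranges overlapped, the log2 difference of WD LKO EV from WD WT EV was -0.07 ± 0.10 (SE, limma adjusted p 0.99) and that of WD LKO NAMPT from WD WT NAMPT was 0.19 ± 0.11 (adjusted p 0.237), and because whole-gene counts do not resolve the floxed part they do not check those labels. Nampt differed by 0.34 ± 0.16 on the log2 scale between WD WT NAMPT and WD WT EV (SE, limma adjusted p 0.144) and by 0.41 ± 0.16 between WD LKO NAMPT and WD LKO EV (adjusted p 0.403). The quality weights of the fit ran from 0.336 for WD WT NAMPT replicate 6 to 2.504 for chow WT EV replicate 2. Mitochondrial counts were highest in WD LKO NAMPT replicate 3, at 12.31%, with 8.566% in the next library. Its 20 most abundant genes held 32.771% of counts, with 30.635% in the next library. That library held the most Fetub and Angptl4 of its group. In bulk tissue, fewer cells of a type and less RNA per cell cannot be told apart. Nothing in the labels gives the hour of tissue collection, the cage or a batch.

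Per kilobase of exon, the members differed widely in level. In chow WT EV the mean level was 3532 CPM per kilobase for Ahsg, 203 for Fetub, 74.8 for Lect2, 38.6 for Angptl8, 17.2 for Enho, 14.6 for Angptl4, 9.72 for Inhbe and 3.67 for Gdf15. In WD WT EV the order was Ahsg at 2567, Lect2 at 131, Fetub at 125, Inhbe at 52.9, Angptl8 at 41.9, Angptl4 at 19.2, Gdf15 at 6.88 and Enho at 0.762 CPM per kilobase. Enho thus moved from the fifth place to the last, and Inhbe from the seventh to the fourth. All other levels below are CPM after TMM scaling, which serve comparisons of 1 gene between libraries.

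**Figure D1:**
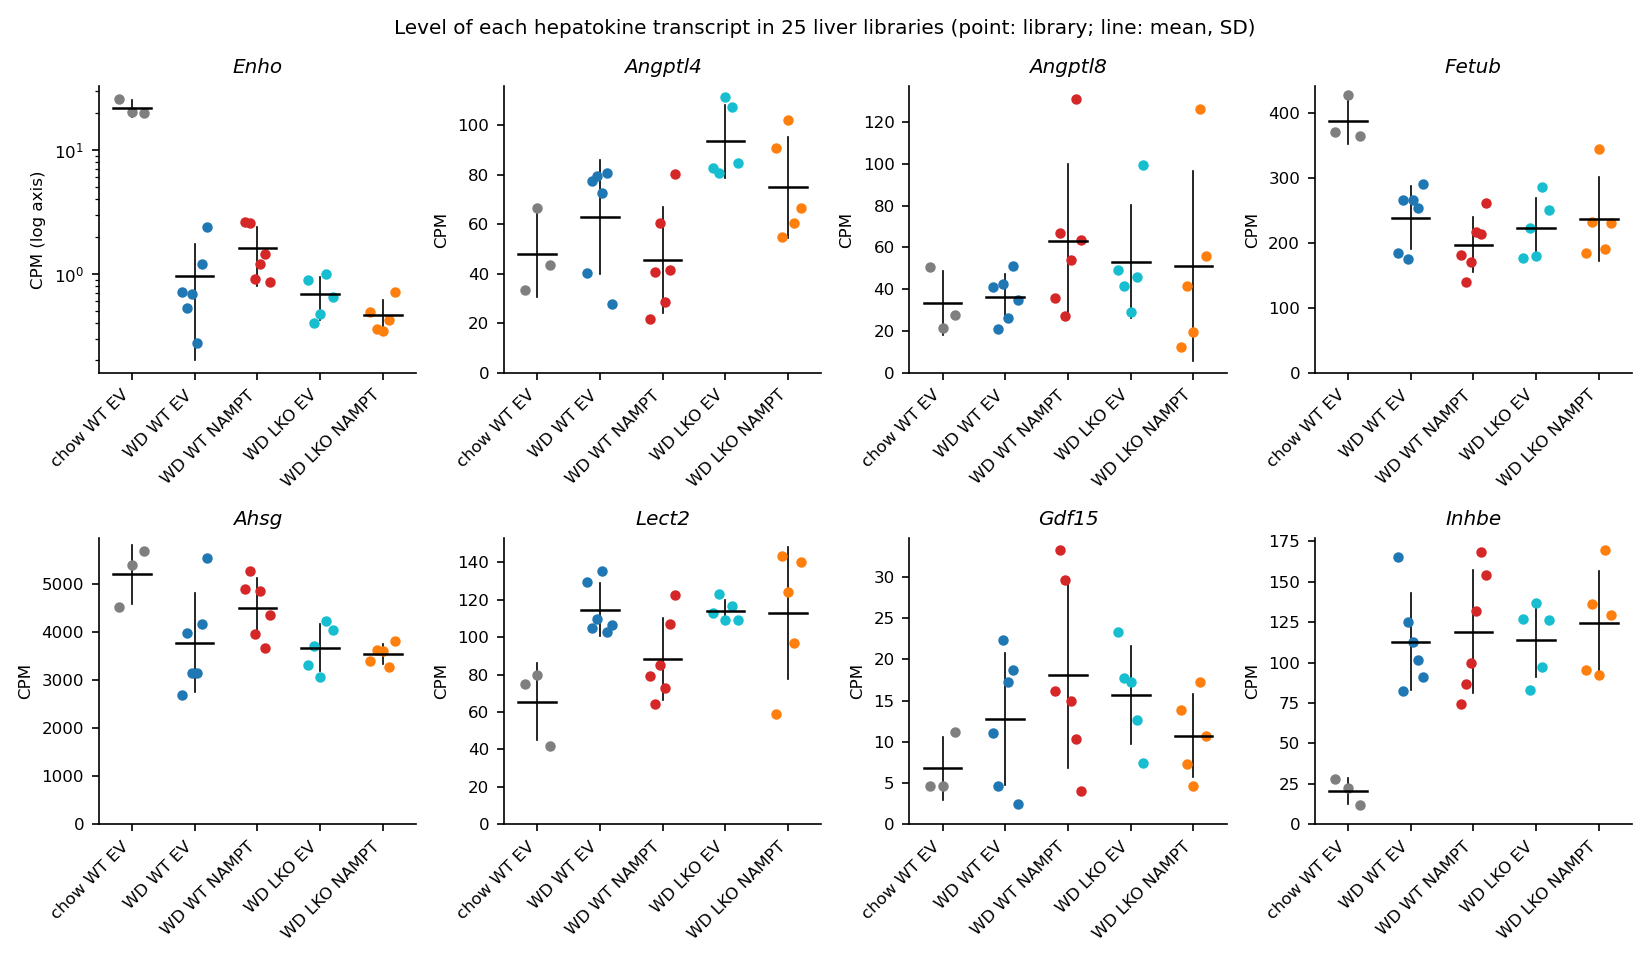
Level of each of the 8 hepatokine transcripts in CPM (linear axes from 0, log axis for Enho) in the 25 liver libraries, by group. Points are libraries, horizontal lines are group means and vertical lines are SD. The chow WT EV libraries of Enho sit between 19.8 and 25.7 CPM, above every Western diet library (0.275 to 2.60 CPM), and those of Inhbe sit between 11.9 and 27.8 CPM, below every Western diet library (74.2 to 169 CPM).

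Diet was the comparison in which the members differed most. Between WD WT EV and chow WT EV, 5 of 8 members were called at an adjusted p of 0.05 or less, 2 higher (Inhbe and Lect2) and 3 lower (Enho, Fetub and Ahsg), where 22% of all genes were called. The libraries of the 2 groups did not overlap for 4 members (Enho, Fetub, Lect2 and Inhbe), where 16.1% of all genes showed no overlap. Members without a call were Angptl4, Angptl8 and Gdf15. The median log2 fold change of the 8 members was 0.20, beside -0.01 for all genes, so that the list as a whole did not go one way.

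In the 4 comparisons within Western diet and in the interaction, calls were few. Between WD WT NAMPT and WD WT EV, 0 of 8 members were called by limma (13.4% of all genes were called) and 0 did not overlap (0.96% of all genes). The share of all genes called ran from 0.448% with 2 surrogate variables to 16.2% with library size alone. With 1 library left out, 132 to 2846 genes were called. Angptl4, Lect2 and Gdf15 reached an unadjusted p under 0.05, as did 30.29% of all genes, and edgeR and DESeq2 called 0 members. Enho is left out of that unadjusted list, because the difference on which it was chosen uses the same WD WT NAMPT libraries. Between WD LKO NAMPT and WD LKO EV, 0 members were called (0.00711% of all genes), 0 did not overlap (1.15%), 0 reached an unadjusted p under 0.05 (9.63% of all genes), and edgeR and DESeq2 called 0. Between WD LKO EV and WD WT EV, 0 were called (0.00711% of all genes), edgeR and DESeq2 called 0, 1 reached an unadjusted p under 0.05 (Angptl4, and 6.33% of all genes), and Angptl4 was also the 1 member without overlap (0.59% of all genes). Between WD LKO NAMPT and WD WT NAMPT, Enho is left out of the count because it was chosen on that difference. Of the other 7 members, 0 were called by limma (7.96% of all genes), 0 by edgeR and 0 by DESeq2, 0 did not overlap (1.39% of all genes), and 2 (Angptl4 and Lect2) reached an unadjusted p under 0.05, as did 28.6% of all genes. For the interaction, the NAMPT difference in the libraries labelled LKO minus that in WT, Enho is again left out because the difference on which it was chosen is part of it. Of the other 7 members, 0 were called by limma (0.00711% of all genes) and 0 by edgeR, and 1 (Gdf15) reached an unadjusted p under 0.05, as did 21.23% of all genes. DESeq2 gave an adjusted p for the interaction of only 2 members, Fetub and Ahsg, and called neither. These comparisons share groups of libraries and are not independent of each other.

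**Figure D2:**
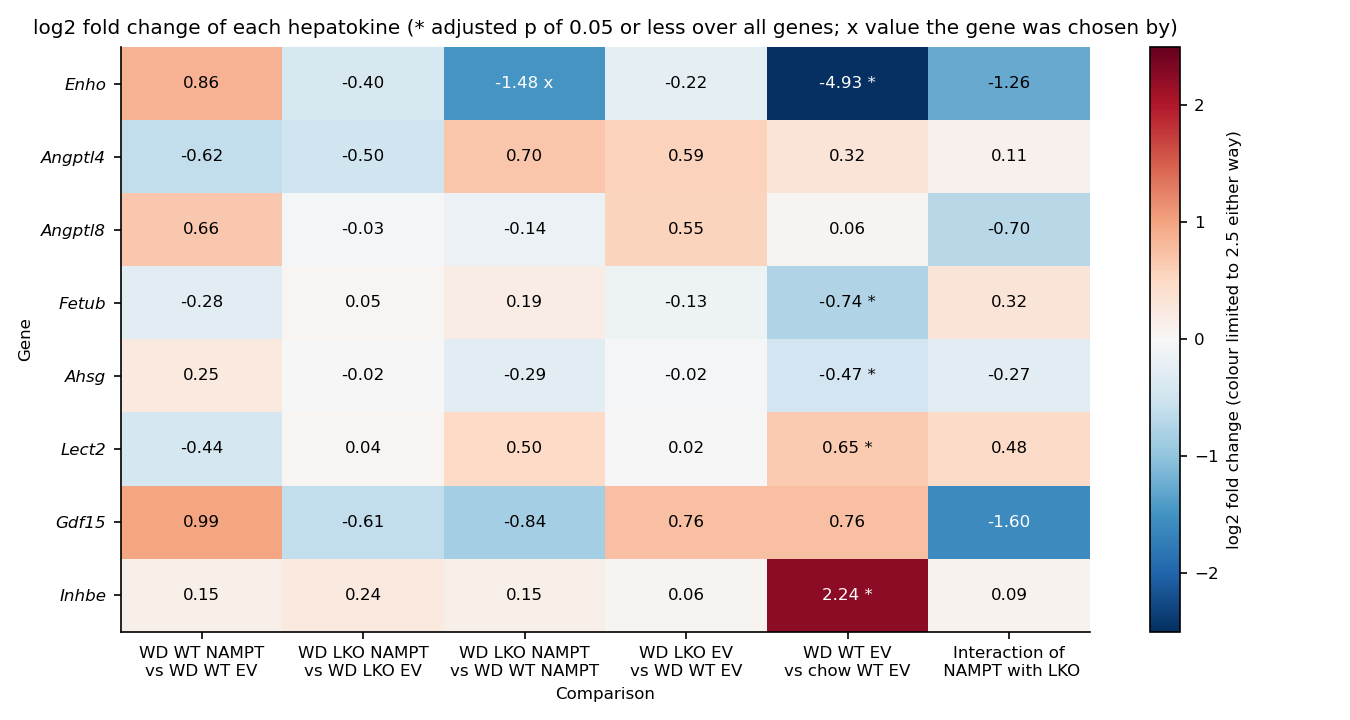
log2 fold change of each member (rows) in each comparison (columns), coloured from blue (lower in the first group) to red (higher in the first group). A star marks an adjusted p of 0.05 or less over all genes and the x marks the value by which Enho was chosen; the diet column holds all 5 stars, from -4.93 for Enho to 2.24 for Inhbe.

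Enho, the adropin gene, showed the lowest log2 fold change of all 14065 genes between WD WT EV and chow WT EV. The 3 chow libraries held 25.7, 20.1 and 19.8 CPM, from 451 to 622 counts. The 6 WD WT EV libraries ran from 0.275 to 2.40 CPM with a median of 0.700 CPM, from 6 to 52 counts. No Western diet library of any group came near the chow level. The log2 fold change was -4.93 ± 0.31 (SE, limma adjusted p 5.17e-11), a 30.4-fold lower level. Across the 8 other settings of the fit it lay between -5.15 and -4.49, and across the 9 fits that left out 1 library between -5.17 and -4.67, always with a call.

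Within Western diet, Enho rested on few counts. The WD WT NAMPT libraries ran from 0.862 to 2.60 CPM with a median of 1.33 CPM, from 16 to 110 counts. The WD LKO EV libraries held 0.885, 0.401, 0.475, 1.005 and 0.652 CPM. The WD LKO NAMPT libraries held 0.489, 0.362, 0.349, 0.423 and 0.713 CPM, from 8 to 21 counts. WD WT NAMPT held the highest mean of the Western diet groups, 1.60 ± 0.80 CPM (SD, n = 6), and WD LKO NAMPT the lowest, 0.467 ± 0.148 CPM (SD, n = 5). In the order of group means, chow WT EV, WD WT NAMPT, WD WT EV, WD LKO EV and WD LKO NAMPT, the step from chow exceeded the larger SD of its neighbours and the other 3 steps did not. The difference of WD LKO NAMPT from WD WT NAMPT was -1.48 ± 0.43 on the log2 scale (SE), and the libraries of these groups did not overlap, with the highest LKO NAMPT library at 0.713 CPM and the lowest WT NAMPT library at 0.862 CPM.

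The contrasts between groups of Enho within Western diet that were tested were not called in the main fit. WD WT NAMPT exceeded WD WT EV by 0.86 ± 0.37 (SE, limma adjusted p 0.119), and their libraries overlapped. WD LKO NAMPT differed from WD LKO EV by -0.40 ± 0.48 (adjusted p 0.826) and WD LKO EV from WD WT EV by -0.22 ± 0.42 (adjusted p 0.991). The interaction, which contains the difference on which Enho was chosen, was -1.26 ± 0.60 and is given as a description. Except for WD LKO EV against WD WT EV, these contrasts use libraries that also entered the difference on which Enho was chosen. All of them rested on 6 to 110 counts per Western diet library.

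Angptl4, the lipoprotein lipase inhibitor (chromosome 17 from 33773750 to 33781575), had no call in any comparison. Its chow libraries held 33.5, 66.7 and 43.4 CPM, and the WD WT EV libraries ran from 27.7 to 80.5 CPM with a median of 75.1 CPM. The difference was 0.32 ± 0.28 on the log2 scale (SE, limma adjusted p 0.439), and the groups overlapped. The highest levels were those of WD LKO EV, with 82.6, 80.8, 111, 108 and 84.9 CPM. All 5 lay above the highest WD WT EV library, narrowly so, at 80.8 against 80.5 CPM. The log2 fold change of 0.59 ± 0.27 had an unadjusted p of 0.0386 and an adjusted p of 0.765. Under NAMPT the level was 21.8 to 80.1 CPM in WT (median 41.2 CPM) and 90.8, 55.0, 102, 60.3 and 66.6 CPM in LKO. Both NAMPT differences were negative, -0.62 ± 0.27 in WT (adjusted p 0.131) and -0.50 ± 0.28 in the libraries labelled LKO (adjusted p 0.598), and their difference was 0.11 ± 0.40 (adjusted p 0.889). With 1 library left out, the difference in WT ran from -0.841 to -0.344, the latter without WD WT NAMPT replicate 4, and the diet difference from 0.198 without chow WT EV replicate 1 (0.203 without WD WT EV replicate 2) to 0.687 without chow WT EV replicate 2, with no call.

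Angptl8, the feeding-induced lipase regulator (chromosome 9 from 21835510 to 21837346), was the member with the widest spread within a group. Its WD LKO NAMPT libraries held 12.4, 41.7, 19.5, 126 and 56.2 CPM, a 10.2-fold range. WD LKO EV held 49.4, 41.8, 29.3, 45.7 and 99.6 CPM, and WD WT NAMPT ran from 27.4 to 131 CPM with a median of 58.8 CPM. The libraries next to the highest held 56.2, 49.4 and 66.8 CPM in these groups, and all groups overlapped. Chow held 50.8, 21.5 and 27.9 CPM, and WD WT EV ran from 21.1 to 51.2 CPM with a median of 38.1 CPM. The diet difference was 0.06 ± 0.46 on the log2 scale (SE, limma adjusted p 0.936), and the largest of the 5 contrasts fitted between groups was 0.66 ± 0.43 for NAMPT in WT (adjusted p 0.306). That value ran from 0.326 without WD WT NAMPT replicate 5 to 1.054 without WD WT NAMPT replicate 3, was 0.383 without WD WT EV replicate 2, and was not called in any of these fits. The SE of the 5 contrasts between groups ran from 0.42 to 0.46.

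The angiopoietin-like proteins and lipases around these 2 members were taken from a list of 10 further genes, all tested. On Western diet 3 were called higher and 1 lower, beside 22% of all genes called in that comparison. Endothelial lipase Lipg rose by 1.04 ± 0.33 on the log2 scale, Lmf1, a maturation factor of lipases, rose by 0.57 ± 0.11, and Gpihbp1, the capillary anchor of lipoprotein lipase, rose by 0.56 ± 0.09. Angptl7 fell by 0.95. The list median was 0.05, beside -0.01 for all genes. In WD WT NAMPT against WD WT EV, where 13.4% of all genes were called, lipoprotein lipase Lpl rose by 1.44 ± 0.30 and Lmf1 fell by 0.44. None of the 10 was called in the other 4 comparisons.

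Fetub (chromosome 16 from 22918382 to 22939766) fell on Western diet. Fetuin-B transcripts stood at 370, 427 and 365 CPM in chow, and ran from 175 to 291 CPM in WD WT EV with a median of 260 CPM. Every chow library lay above every WD WT EV library, and the log2 fold change was -0.74 ± 0.16 (SE, limma adjusted p 0.00156). Without chow WT EV replicate 2 it was -0.63 with an adjusted p of 0.102. The remaining groups lay at 140 to 261 CPM for WD WT NAMPT (median 198 CPM), 177, 223, 181, 286 and 251 CPM for WD LKO EV, and 185, 232, 345, 191 and 231 CPM for WD LKO NAMPT. The 4 Western diet groups overlapped one another, and the largest of the 4 contrasts fitted among them was -0.28 ± 0.15 for NAMPT in WT (adjusted p 0.204).

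Ahsg, the most abundant member and a neighbour of Fetub (chromosome 16 from 22892042 to 22899438), fell less and with overlap. Fetuin-A transcripts stood at 4519, 5405 and 5692 CPM in chow and ran from 2703 to 5550 CPM in WD WT EV with a median of 3567 CPM. Only WD WT EV replicate 8, at 5550 CPM, reached the chow range. The log2 fold change was -0.47 ± 0.14 (SE, limma adjusted p 0.0197). The call depended on the fit, with adjusted p-values of 0.0983 by the edgeR quasi-likelihood test, 0.0599 by DESeq2, 0.0823 without quality weights and 0.0895 from only the groups compared. It was also lost without chow WT EV replicate 1 (-0.59, adjusted p 0.0662), chow WT EV replicate 2 (-0.46, adjusted p 0.204) or WD WT EV replicate 1 (-0.38, adjusted p 0.0578).

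Among the Western diet groups, Ahsg was highest in WD WT NAMPT, from 3670 to 5280 CPM with a median of 4611 CPM. WD LKO EV held 3309, 3706, 3073, 4244 and 4043 CPM, and WD LKO NAMPT held 3408, 3631, 3608, 3285 and 3827 CPM, the narrowest range of any group. The NAMPT difference in WT was 0.25 ± 0.14 (SE, limma adjusted p 0.219), and became a call when libraries were scaled by size alone (0.38, adjusted p 0.0471). With 1 library left out it ran from 0.155, without WD WT EV replicate 1, to 0.36, with no call. WD LKO NAMPT differed from WD WT NAMPT by -0.29 ± 0.15 (adjusted p 0.187). Of the 4 further cystatin-fold plasma proteins tested, cystatin C (Cst3) rose on Western diet by 0.51 ± 0.09, and histidine-rich glycoprotein (Hrg) fell by 0.43 in WD WT NAMPT against WD WT EV. No other member of that list was called in any comparison.

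Lect2 (chromosome 13 from 56542460 to 56548538) rose on Western diet. Chow libraries held 74.7, 80.0 and 42.1 CPM, and WD WT EV ran from 103 to 135 CPM with a median of 108 CPM. The groups did not overlap. The log2 fold change was 0.65 ± 0.17 (SE, limma adjusted p 0.00706), and it stayed a call in each of the 9 fits that left out 1 library, at 0.55 to 1.01, the highest without chow WT EV replicate 2.

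Within Western diet, Lect2 was lowest in WD WT NAMPT. That group ran from 64.4 to 122 CPM with a median of 82.1 CPM. WD LKO EV held 113, 123, 109, 117 and 109 CPM, and WD LKO NAMPT held 58.7, 144, 124, 97.1 and 140 CPM. WD LKO EV varied by only 1.13-fold, whereas WD LKO NAMPT varied by 2.44-fold with 1 low library, replicate 1. NAMPT in WT gave -0.44 ± 0.16 (SE, limma adjusted p 0.0712), and the difference of WD LKO NAMPT from WD WT NAMPT was 0.50 ± 0.17 (adjusted p 0.0681). Neither was called in the 8 other settings, where the first ran from -0.432 to -0.196 (adjusted p 0.0533 to 0.556) and the second from 0.147 to 0.461 (adjusted p 0.164 to 0.673). With 1 library left out, the first lay between -0.501 and -0.346 (adjusted p 0.0369 to 0.196) and the second between 0.282, without WD LKO NAMPT replicate 2, and 0.64 (adjusted p 0.00955 to 0.45). The first passed the threshold without WD WT NAMPT replicate 5 (-0.50, adjusted p 0.0369) or replicate 6 (-0.48, adjusted p 0.0385). The second passed it without WD WT NAMPT replicate 5 (0.56, adjusted p 0.0376), WD WT NAMPT replicate 6 (0.54, adjusted p 0.035), WD LKO NAMPT replicate 1 (0.64, adjusted p 0.00955) or WD LKO NAMPT replicate 4 (0.60, adjusted p 0.0322). The interaction was 0.48 ± 0.23 (adjusted p 0.24), and 0.128 with 2 surrogate variables. With 1 library left out it ran from 0.265, without WD LKO NAMPT replicate 2, to 0.623, with no call.

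Inhbe, the activin E subunit (chromosome 10 from 127349402 to 127351772 in the count tables, whose model ends short of the RefSeq start), had the largest rise of the members on Western diet and stood at place 136 from the top among all 14065 genes. The chow libraries held 27.8, 22.5 and 11.9 CPM. WD WT EV ran from 82.1 to 165 CPM with a median of 107 CPM. The lowest Western diet library was thus far above the highest chow library. The log2 fold change was 2.24 ± 0.22 (SE, limma adjusted p 1.52e-07), a 4.72-fold higher level, and it lay between 2.19 and 2.499 over the 8 other settings and between 2.08 and 2.72 with 1 library left out.

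Inhbe lay at a like level in the 4 Western diet groups. WD WT NAMPT ran from 74.2 to 168 CPM with a median of 116 CPM. WD LKO EV held 127, 83.0, 137, 97.0 and 126 CPM, and WD LKO NAMPT held 95.1, 136, 92.5, 169 and 129 CPM. The 4 group means lay between 112.9 and 124.5 CPM, with SDs of 22.8 to 38.1 CPM, and no step between neighbours exceeded the SD. The 4 contrasts within Western diet lay between 0.06 and 0.24 on the log2 scale, with SEs of 0.20 to 0.22, and the adjusted p-values were 0.652 or more.

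Gdf15, the stress-induced ligand of GFRAL (chromosome 8 from 70629393 to 70632456), was the least abundant member in chow. Chow libraries held 4.59, 4.63 and 11.2 CPM, and WD WT EV ran from 2.495 to 22.4 CPM with a median of 14.2 CPM, a 8.96-fold range. The groups overlapped, and the log2 fold change was 0.76 ± 0.59 (SE, limma adjusted p 0.375). WD WT NAMPT ran from 3.99 to 33.2 CPM with a median of 15.5 CPM. WD LKO EV held 23.3, 17.7, 17.2, 12.7 and 7.45 CPM, and WD LKO NAMPT held 13.8, 7.33, 4.62, 17.3 and 10.7 CPM. NAMPT gave 0.99 ± 0.44 in WT (adjusted p 0.133) and -0.61 ± 0.45 in the libraries labelled LKO (adjusted p 0.705), and the interaction was -1.60 ± 0.63 (unadjusted p 0.0183, adjusted p 0.155). With 2 surrogate variables added to the fit, the NAMPT difference in WT turned to -0.26 and the interaction shrank to -0.175. With 1 library left out, the NAMPT difference in WT ran from 0.504 without WD WT EV replicate 2 to 1.259 without WD WT EV replicate 4, with no call. The NAMPT difference in the libraries labelled LKO ran from -0.838 to -0.278, the latter without WD LKO NAMPT replicate 2. The diet difference ran from 0.256 without chow WT EV replicate 1 to 1.24 without WD WT EV replicate 2, with no call.

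In WD WT NAMPT the library with the least Gdf15 was replicate 6, at 3.99 CPM, and it held the most Fetub (261 CPM), Lect2 (122 CPM) and Angptl4 (80.1 CPM) and the least Enho (0.862 CPM) of its group. Replicate 2, with the most Gdf15 (33.2 CPM), held the least Fetub (140 CPM) and the least Lect2 (64.4 CPM). These 2 libraries had low quality weights in the fit, 0.336 and 0.401.

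The TGF-β superfamily genes around Inhbe were taken from a list of 13 ligands, binders and receptors, of which 10 were tested. On Western diet 2 of the 10 were called, both higher, beside 22% of all genes called in that comparison. Inhbb, the activin B subunit, rose by 1.44 ± 0.43 on the log2 scale, and Inhbc, the activin C subunit, rose by 0.48 ± 0.17. The list median was -0.08. The other calls were single genes, with the activin binder relative Fstl1 higher by 0.78 ± 0.21 in WD WT NAMPT against WD WT EV, and Bmp6 lower by 0.84 in WD LKO NAMPT against WD WT NAMPT. Acvr1c, the receptor on which activin E is known to act in fat, was not kept for low counts.

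Genes of the integrated stress response, the programme under which Gdf15 is known to be induced, moved in both directions with diet. Of 11 tested, 3 were called higher and 2 lower, beside 22% of all genes called. Chac1 rose by 2.49 ± 0.66, Sesn2 by 0.997 ± 0.133 and Atf5 by 0.44 ± 0.15 on the log2 scale, whereas asparagine synthetase Asns fell by 3.45 and Atf4 fell by 0.49. In WD WT NAMPT against WD WT EV 4 of 11 were called (13.4% of all genes), all higher, with Atf3 at 2.02 ± 0.58, Psat1 at 1.69 ± 0.47 and Nupr1 at 1.68 ± 0.51. None was called in WD LKO NAMPT against WD LKO EV (0.00711% of all genes), and Ddit3 fell by 0.83 in WD LKO NAMPT against WD WT NAMPT (7.96%). For the interaction 0 of the 11 were called (0.00711% of all genes). Gdf15 itself was called in none of these comparisons.

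Metabolic genes of these livers were also called on Western diet, in a comparison where 22% of all genes were called. Of 10 lipogenic and carbohydrate response genes 8 were called higher and 0 lower, with a median of 1.46 on the log2 scale, led by Pnpla3 (4.53 ± 1.53), Scd1 (2.95 ± 0.21) and Pklr (1.81 ± 0.23). Of 10 PPARα and fatty acid oxidation genes 7 were called higher, led by Vnn1 (2.74 ± 0.48), Cyp4a10 (1.52 ± 0.34) and Ppara (1.04 ± 0.16), and Pdk4 fell by 1.29. Angptl4, a known PPARα target, was not called with them. Of 19 other liver-secreted metabolic factors 4 were called higher and 2 lower, beside that 22% of all genes. Lipocalin-2 (Lcn2) rose by 3.70 ± 1.14, Serpinb1a by 1.37 ± 0.41 and tsukushi (Tsku) by 1.23 ± 0.31, whereas Igfbp2 fell by 0.94 and Igf1 fell by 0.56. Among these lists and the members, Enho was the gene with the lowest value.

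**Figure D3:**
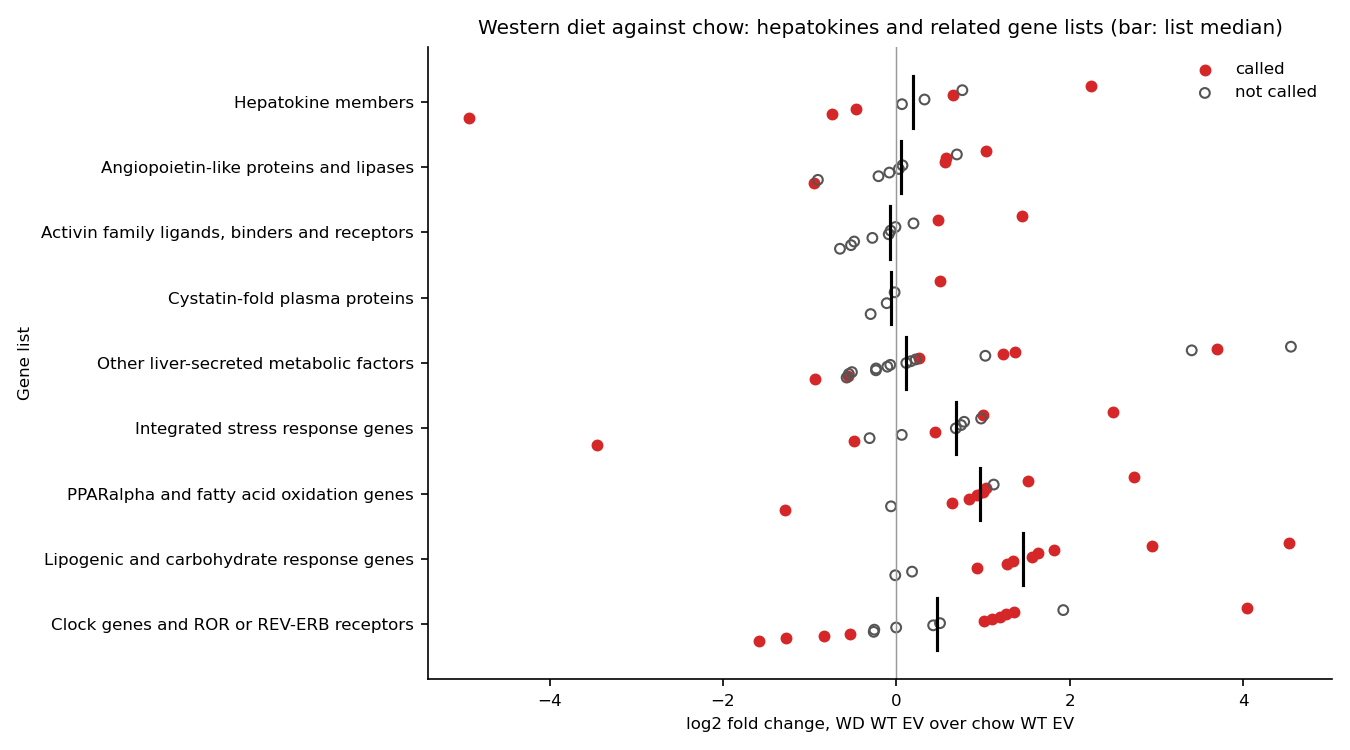
log2 fold change between WD WT EV and chow WT EV (horizontal axis) for the 8 members and for genes of 8 related lists (rows). Filled points were called, open points were not, and bars are list medians. Enho lies farthest to the left at -4.93, and the lipogenic list has the highest median at 1.46.

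Clock transcripts differed between the same groups. Of 16 clock genes and ROR or REV-ERB receptors, 10 differed by call on Western diet, 6 upward and 4 downward, beside 22% of all genes called. Dbp, a clock output factor, stood at 0.620, 1.25 and 5.13 CPM in chow and at 8.79 to 51.3 CPM in WD WT EV (log2 fold change 4.04 ± 1.17, SE, limma adjusted p 0.0157). Arntl, which encodes the clock activator BMAL1, stood at 37.4, 37.4 and 27.6 CPM in chow and at 4.88 to 18.1 CPM in WD WT EV (-1.58 ± 0.30, adjusted p 0.000594). Per1 and Tef rose by 1.36 ± 0.37 and 1.27 ± 0.31, and Nfil3 and Cry1 fell by 1.27 and 0.84. Clock transcripts therefore moved with the diet comparison, and their part in the values of Enho, Fetub, Ahsg, Lect2 and Inhbe was not tested.

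**Figure D4:**
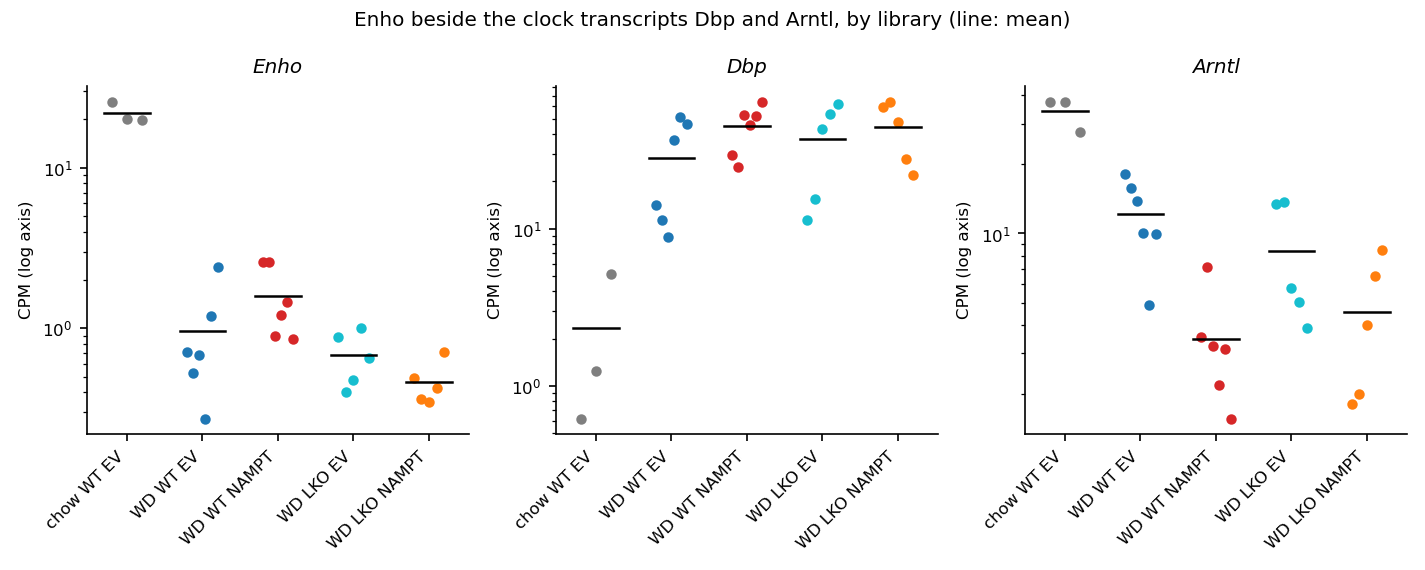
Enho, Dbp and Arntl in CPM on log axes in the 25 libraries by group; points are libraries and lines are group means. All 3 chow libraries differ from every Western diet library in Enho, Dbp and Arntl, with Arntl at 27.6 CPM or more in chow and at 18.1 CPM or less on Western diet.

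Of 39 markers of liver cells tested, 9 were called between WD WT EV and chow, beside 22% of all genes. Of 6 hepatocyte markers Cps1 fell by 1.22 and Tat fell by 0.95, and the summed level was 74590 to 85480 CPM in chow and 61050 to 76860 CPM in WD WT EV. Of 9 macrophage markers Cd5l (1.06 ± 0.22) and Cd68 (0.79 ± 0.28) rose, with sums of 191.5 to 239 CPM in chow and 248.8 to 364.9 CPM in WD WT EV. Of 6 stellate markers Col3a1 (1.11 ± 0.36) and Lrat (0.54 ± 0.11) rose, with sums of 285 to 332 CPM and 278 to 462 CPM. Of 5 endothelial markers Lyve1 rose by 1.13 ± 0.30 and Kdr fell by 0.20, and of 5 lymphocyte markers tested Cd79b fell by 0.79, whereas no neutrophil or cholangiocyte marker was called. The part of these cells in the diet values of the members was not tested.

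Clock genes and markers of other cells were also read between WD WT NAMPT and WD WT EV, where 13.4% of all genes were called. That share ran from 0.448% with 2 surrogate variables to 16.2% with library size alone. The calls named here come from the main fit alone. In WD WT NAMPT against WD WT EV 1 clock gene was called higher, Noct (1.41 ± 0.36 on the log2 scale), and 5 lower, led by Arntl (-1.99 ± 0.44) and Nfil3 (-0.84 ± 0.23). Of 9 macrophage markers 6 were called higher, led by Marco (2.79 ± 0.76), Trem2 (1.92 ± 0.54) and Itgam (1.87 ± 0.43), and their summed level ran from 234 to 694 CPM in WD WT NAMPT against 248.8 to 364.9 CPM in WD WT EV. Of 6 stellate markers 3 were called higher, led by Col1a1 (1.70 ± 0.48), with sums of 285 to 697 CPM against 278 to 462 CPM. Of 4 neutrophil markers tested 2 were called higher, S100a9 (1.57 ± 0.48) and Csf3r (1.28 ± 0.30), with sums over the 6 listed of 3.66 to 27.8 CPM against 2.81 to 7.96 CPM and Ly6g at 0 in all WD WT EV libraries. Hepatocyte, lymphocyte and cholangiocyte markers had 0 calls there, and of 5 endothelial markers 1 rose and 1 fell. In WD LKO NAMPT against WD LKO EV, limma called 0 genes of these lists (0.00711% of all genes), and 2 clock genes, 2 hepatocyte, 1 lymphocyte and 3 cholangiocyte markers reached an unadjusted p under 0.05. The values of Lect2, Gdf15 and Angptl4, named above at an unadjusted p under 0.05, and of Enho come from these same libraries. The part of these cells in them was not tested.

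In the same comparison, with 13.4% of all genes called, 4 of 19 other secreted factors and 3 of 10 PPARα genes were called. Of the secreted factors 1 was called higher, Orm2 (1.07 ± 0.36), and 3 lower, Serpinb1a (-2.78 ± 0.50), Leap2 (-0.87 ± 0.22) and Rbp4 (-0.39 ± 0.12). The 3 PPARα genes were all lower, among them Cyp4a10 (-1.92 ± 0.33) and Acot1 (-0.67 ± 0.22), and Mlxipl was the 1 lipogenic gene called (-0.40 ± 0.13). Angptl4 stood at -0.62 ± 0.27 beside them without a call. Between WD LKO NAMPT and WD WT NAMPT 4 PPARα genes were called higher (7.96% of all genes were called in either direction), led by Cyp4a10 (2.45 ± 0.36), Cyp4a14 (2.14 ± 0.60) and Acot1 (0.78 ± 0.23). Under the 8 other settings that share ran from 0.0853% with only the groups compared to 5.97% with library size alone. With 1 library left out, 0 to 2287 genes were called, and the calls named here come from the main fit alone. Angptl4 stood at 0.70 ± 0.29 (adjusted p 0.115), and at 0.421 without WD WT NAMPT replicate 4. In that comparison the secreted factors Serpinb1a (1.91 ± 0.53) and Selenop (0.42 ± 0.12) were higher, hepcidin (Hamp) was lower (-2.12 ± 0.49), and Marco (-2.14 ± 0.67), Itgam (-1.27 ± 0.39), Csf3r (-1.31 ± 0.31), Sox9 (-1.44 ± 0.38) and Tat (-0.74 ± 0.21) were lower, while the clock gene Hlf (0.60 ± 0.17) was higher. The part of these cells and of the clock in the level of Enho there was not tested.

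The genes whose levels followed each member most closely were sought among 12735 genes with a mean of at least 1 CPM, by Pearson's r of log2 CPM over the 25 libraries, as a description. The libraries share a diet split of 3 against 22, so r over deviations from the group means is given as well. For Enho the nearest included Fam222a (r = 0.94, 0.57 over deviations) and Slco2a1 (0.90 and 0.43), followed by Snrnp200 (0.89 and 0.27) and Adgrf1 (0.89 and 0.38). For Inhbe they were Tlr12 (0.93 and 0.76), Rps6ka1 (0.93 and 0.73) and Gpc1 (0.91 and 0.67), followed by 1810058I24Rik (0.91 and 0.67) and Fabp2 (0.91 and 0.41). For both Enho and Inhbe, r was lower over deviations than over the levels for every gene named. For Gdf15 they were Pcolce (0.82 and 0.84), Ddit4l (0.82 and 0.79) and Plod3 (0.82 and 0.79), followed by Prkch and Rhbdf2 (0.81 each). For Angptl8 they were Yipf2 (0.76 and 0.73), Znhit2 (0.73 and 0.71) and Dnaja4 (0.72 and 0.78), followed by Rangap1 (0.70) and Polr3e (0.67). For these last 2 members r was about as large over deviations as over the levels.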

How the data were processed

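Liver RNA of 25 mice was sequenced after oligo-dT selection. The authors aligned reads to GRCm38 with STAR and counted them per gene with featureCounts (versions 2.5.1a and 1.4.6-p5 in the submitters' processing notes). The deposited files hold raw counts, CPM and RPKM for 41388 Ensembl identifiers. Deposited CPM and RPKM followed from those counts to within a relative deviation of 5.92e-14, and only the counts were analysed. Whether strand was used is not given in the sources used here.

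Members and lists were chosen with earlier results of these data known. Symbols came from GENCODE M21, which lists 40254 identifiers. Genes with more than 1 CPM in at least 2 libraries were kept and 4 ribosomal RNA genes left out, leaving 14065. Counts were TMM-scaled (edgeR 4.0.16) and analysed in R 4.3.3 by limma 3.58.1 (voomWithQualityWeights), following the study's methods, in a single model of the 25 libraries holding the 5 group means. Benjamini-Hochberg adjustment was over all genes, and an adjusted p of 0.05 or less was called. SE is that of the fit, and SD is between libraries. Log2 CPM for likeness used a pseudocount of 0.5. The fit was tested on simulated data. No 2 libraries of a group agreed within sampling noise (chi-square per degree of freedom 15.14 or more). Alternatives were the edgeR quasi-likelihood test, DESeq2 1.42.0, sva 3.50.0 with 2 surrogate variables, no quality weights, library size alone, no filter (29119 genes), only the groups compared, a replicate block and each library left out in turn. Of each list, up to 3 called genes with the largest fold change in each direction were named per comparison, and for 4 members the 5 genes of most similar pattern. Libraries held 20166175 to 32937326 counts. A few genes that this rule would name are not reported here.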

Additional observations from a re-analysis of the deposited data

Results flagged for a closer look

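Among 32 sets of libraries tested (8 members in the 4 Western diet groups), 1 held a library far from the others. Angptl8 stood at 99.56 CPM in WD LKO EV replicate 5, where the next library held 49.42 CPM, a gap of 0.714 of the whole range of the group. Chance alone flags about 1 in 20 such sets.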

How the results depend on the processing

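The 6 counts of called members were recomputed under 8 other settings and with each of 25 libraries left out. The diet count was 4 to 5 under the other settings (Ahsg lost) and 3 to 5 with a library left out, the 3 without chow WT EV replicate 2. The count for WD WT NAMPT against WD WT EV became 1 when libraries were scaled by size alone and 0 to 1 with a library left out. For WD LKO NAMPT against WD WT NAMPT, Enho is left out of the count because it was chosen on this difference. The count of the other 7 members was 0 in the main fit and under the 8 other settings. With a library left out, Lect2 was called in 4 of 11 fits, and the cause was not tested. The other 3 counts stayed at 0 in all these fits, where DESeq2 gave an adjusted p for the interaction of only 2 members (Fetub and Ahsg).

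The replicate block was added because groups share replicate numbers in the titles, but same-numbered libraries did not deviate together (r from -0.377 to 0.419), so they share only a number. The block gave 2 called members in WD WT NAMPT against WD WT EV, Enho (1.13, adjusted p 0.0179) and Ahsg (0.48, adjusted p 0.0271), and turned the sign of 8 differences that were not called: in WD LKO EV against WD WT EV of Enho (0.002), Fetub (0.083), Ahsg (0.22), Lect2 (-0.071) and Inhbe (-0.087), in WD LKO NAMPT against WD LKO EV of Lect2 (-0.01), in WD WT EV against chow of Angptl8 (-0.20) and in WD WT NAMPT against WD WT EV of Inhbe (-0.015).

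Other sign changes were all of values that were not called. With 2 surrogate variables they were Gdf15 (-0.259) and Fetub (0.052) for NAMPT in WT, Gdf15 (0.138) and Fetub (-0.075) between the NAMPT groups, Angptl8 (0.476) and Lect2 (-0.068) for NAMPT in LKO, Ahsg (0.056) for LKO EV against WT EV, and Angptl4 (-0.055) and Fetub (-0.048) for the interaction. With library size alone they were Angptl4 (-0.025) and Inhbe (-0.037) for the interaction and Ahsg (0.01) for LKO EV against WT EV. Lect2 turned for NAMPT in LKO under edgeR (-0.02), DESeq2 (-0.031), no weights (-0.091) and no filter (-0.014), and for LKO EV against WT EV under edgeR (-0.007) and DESeq2 (-0.006). Ahsg for LKO EV against WT EV turned without the filter (0.003).

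With a library left out, values that turned sign ran from -0.119 to 0.086 for Ahsg, -0.478 to 0.022 for Enho, -0.108 to 0.208 for Inhbe and -0.022 to 0.059 for Lect2 in LKO EV against WT EV, from -0.098 to 0.036 for Ahsg, -0.358 to 0.245 for Angptl8, -0.052 to 0.138 for Fetub and -0.171 to 0.184 for Lect2 for NAMPT in LKO, from -0.541 to 0.199 for Angptl8 between the NAMPT groups, from -0.231 to 0.38 for Angptl8 on diet, from -0.014 to 0.287 for Inhbe for NAMPT in WT, and from -0.166 to 0.331 for Angptl4 and -0.059 to 0.256 for Inhbe for the interaction. Low counts limit Enho within Western diet, and library spread limits Gdf15 and Angptl8.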
